A study of Mus musculus with 4 samples.

Results

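Haemoglobin and erythroid genes were examined in medullary thymic epithelial cells (mTECs). The 6 genes, as named in the count table, are Beta-s, Hbb-b1 and Hbb-b2 for adult β-globin, Hba-a1 and Hba-a2 for adult α-globin, and Alas2. The β-globin names need not all stand for separate genes, as set out below. They are globin and erythroid rows of a table of 23366 gene symbols, and were chosen by name with their counts in these 4 pools, and the male against female values, already known. This makes their levels and fold changes a description, and no test is given for them. All 6 had a row, 3 had a count in any pool, and 1, Beta-s, passed the filter on low counts.

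The study compared mTECs of male and female wild-type C57BL/6 mice aged 6 to 8 weeks. Each sex had 2 pools, and each pool held cells of 10 mice that were sorted as PI- CD45- MHCII+ Ly51low. No treatment is given in the labels, and the gate they list names no erythroid surface marker. PolyA RNA was amplified with the SMARTer Ultra Low kit v3, sequenced as 50-base reads, and counted per gene by the authors.

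Haemoglobin is a tetramer of α-type and β-type globin chains, each holding a haem group, and it carries oxygen in red cells. Mouse globin genes lie in an α cluster and a β cluster, each with embryonic genes beside the adult ones. Alas2 encodes the erythroid form of the enzyme that starts haem synthesis, Alas1 the form used in most other cells. Mature red cells have no nucleus but keep globin mRNA while young. Medullary thymic epithelium also transcribes many genes of other tissues, in part through the regulator Aire.

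The adult globin genes come as near-identical copies, and the sequences below show how little separates them. In the GENCODE annotation of NCBIM37 (mm9), Hba-a1 lies at chr11:32183511-32184465 and Hba-a2 at chr11:32196489-32197301, both on the plus strand and both with 3 exon blocks. Their coding sequences were identical at 428 of 429 bases (99.77%), with a longest identical run of 380 bases. The single difference was C381T, counted from 1 at the A of the start codon, with the Hba-a1 base first. Coding bases 356 to 406 are printed with that base in capitals.
Hba-a1: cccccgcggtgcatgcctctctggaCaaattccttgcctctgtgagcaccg
Hba-a2: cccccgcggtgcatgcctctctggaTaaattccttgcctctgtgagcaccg

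The adult β-globin genes lie at chr7:110975048-110976610 and chr7:110961038-110962510 of the same build, both on the minus strand with 3 exon blocks. GENCODE names them Hbb-b1 and Hbb-b2. Their coding sequences matched at 443 of 444 bases (99.77%), with C417T as the single difference and 416 bases as the longest identical run. Coding bases 392 to 442 are shown with the differing base in capitals.
GENCODE Hbb-b1: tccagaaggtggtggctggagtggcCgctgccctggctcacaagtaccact
GENCODE Hbb-b2: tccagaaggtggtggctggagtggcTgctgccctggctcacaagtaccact

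Names differ between annotations for this pair. RefSeq gives Beta-s as a synonym of Hbb-bs, the β-globin gene of the haplotype that C57BL/6 mice carry. The RefSeq start region of Hbb-bs matched NCBIM37 at 1 place, chr7:110976393-110976692, which is the start of the gene GENCODE calls Hbb-b1. The second gene, RefSeq Hbb-bt, matched at chr7:110962388-110962687, the start of GENCODE Hbb-b2. The count table holds rows named Beta-s, Hbb-b1 and Hbb-b2 side by side, and none named Hbb-bs or Hbb-bt. Which bases its Hbb-b1 and Hbb-b2 rows covered is not given in the sources used here. Reads that fall on overlapping genes are set aside by HTSeq-count as ambiguous, and this row took 0.509% to 0.552% of each pool's reads. How many of them lie on globin genes was not tested.

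A 50-base read can be assigned to 1 of these genes only where its bases match no other place and no other gene. A window was called unique where it matched at most 1 place in NCBIM37 without mismatch and was in no other gene's coding transcript. Of the 50-base windows of the longest transcript, 50 of 650 (7.69%) were unique for Hba-a1 and 50 of 505 (9.9%) for Hba-a2, and the pair shared 439 windows with each other. For the β-globin genes the unique windows were 348 of 729 (47.74%) at the Hbb-bs locus and 273 of 654 (41.74%) at the Hbb-bt locus. The embryonic globins Hba-x and Hbb-y were unique in all of their 752 and 612 windows. Alas2 was unique in 1725 of 1988 windows (86.77%), and the other 263 were shared with Apex2, a gene that overlaps it. Reads with several alignments, which were assigned to no gene, took 27.3% to 33.2% of each pool.

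**Figure D1:**
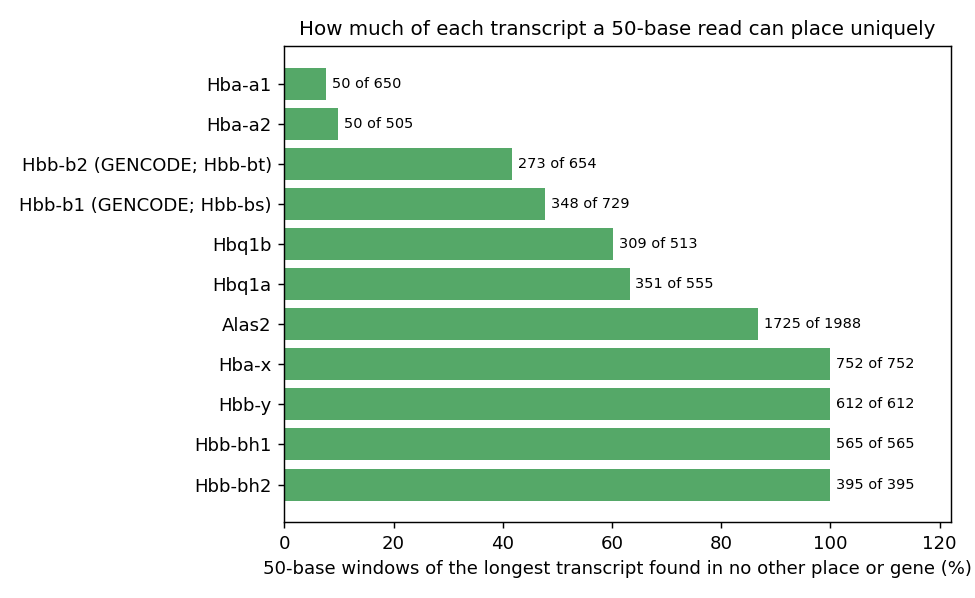
Share of the 50-base windows of each globin transcript and of Alas2 that match no other place in the genome and no other gene (horizontal axis, %), with the number of windows beside each bar. The α-globin genes sit lowest at 7.69% and 9.9%, and the embryonic globins are at 100%.

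Upstream sequence shows what the adult genes share. The 250 bases before the RefSeq start (GRCm38.p6) are printed for Hbb-bs, which Beta-s names, and for Hba-a1, with matches to 4 motifs in capitals. The motif GATAAG is bound by GATA factors, the motif CACCC by Klf factors, while the motif CCAAT belongs to a general promoter box and the motif ATATAA is a form of the TATA box. Both strands were searched, and no matches overlap in these 2 sequences.
Hbb-bs (chr7:103827929-103828178, minus strand): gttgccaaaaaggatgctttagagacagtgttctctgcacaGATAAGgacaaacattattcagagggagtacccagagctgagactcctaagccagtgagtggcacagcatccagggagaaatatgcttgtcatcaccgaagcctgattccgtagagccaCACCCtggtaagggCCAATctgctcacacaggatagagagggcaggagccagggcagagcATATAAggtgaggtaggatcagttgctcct
Hba-a1 (chr11:32283422-32283671, plus strand): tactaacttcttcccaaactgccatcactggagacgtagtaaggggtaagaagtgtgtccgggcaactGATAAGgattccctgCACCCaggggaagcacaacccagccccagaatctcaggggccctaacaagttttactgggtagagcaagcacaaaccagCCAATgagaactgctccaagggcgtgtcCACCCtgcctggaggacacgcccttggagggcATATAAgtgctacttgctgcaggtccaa

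The ATATAA match began 30 bases before the start in Hbb-bs and 28 in Hba-a1, and the CCAAT match 76 and 88 bases before it. The start regions of Hba-a1 and Hba-a2 were identical in 297 of 297 bases compared. All 4 motifs were present in Hbb-bs, Hbb-bt, Hba-a1 and Hba-a2, and in 46 of 32851 promoters (0.14%) overall. Singly, CACCC was in 52.01% of promoters, CCAAT in 33.85%, ATATAA in 9.1% and GATAAG in 6.55%. The Alas2 window held 3 CACCC matches, all on the minus strand, and none of the other 3 motifs. These matches are letters in a window and say nothing of factor binding in these cells.

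Reads counted on genes numbered 3508921 and 1976272 in female pools 1 and 2, and 7103627 and 3344471 in male pools 1 and 2. Levels are given as normalized CPM, which puts libraries of different depth on 1 scale with TMM factors of 1.05, 1.03, 1.18 and 0.780 in the same order. The limit that a count of 0 sets is 3 counts, equal to 0.812, 1.48, 0.357 and 1.15 normalized CPM in these pools. Intervals and this limit cover counting error only, since no molecular identifiers are described. The sex labels held, with 349 and 111 Xist counts in females against 7 and 18 in males. The Y-linked gene Ddx3y was at 0 in females and had 445 and 89 counts in males.

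Beta-s, the adult β-globin gene, had the most counts of the 6 genes in every pool. It had 154 and 18 counts in female pools 1 and 2, and 686 and 160 counts in male pools 1 and 2. As normalized CPM these were 41.7 and 8.86 in females and 81.5 and 61.3 in males. Both male pools lay above both female pools, but the female pools were farther from each other than male pool 2 was from female pool 1. The ratio of female pool 1 over female pool 2 was 4.70, while male pool 2 over female pool 1 was 1.47 and male pool 1 over male pool 2 was 1.33. The means were 25.3 ± 23.2 in females and 71.4 ± 14.3 in males (SD, n = 2), and the fitted log2 fold change of male over female was 1.47.

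The size of that difference rested on female pool 2. Without it the log2 fold change of Beta-s was 0.80, and without female pool 1 it was 3.01. Of the 10865 genes tested, 1022 (9.41%) lay higher in both male pools than in both female pools, and 1285 (11.8%) lay lower in both. Nothing was read from the place of Beta-s among the former, because the gene was chosen with these values known. In bulk RNA, more cells of a type and more RNA per cell cannot be told apart.

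**Figure D2:**
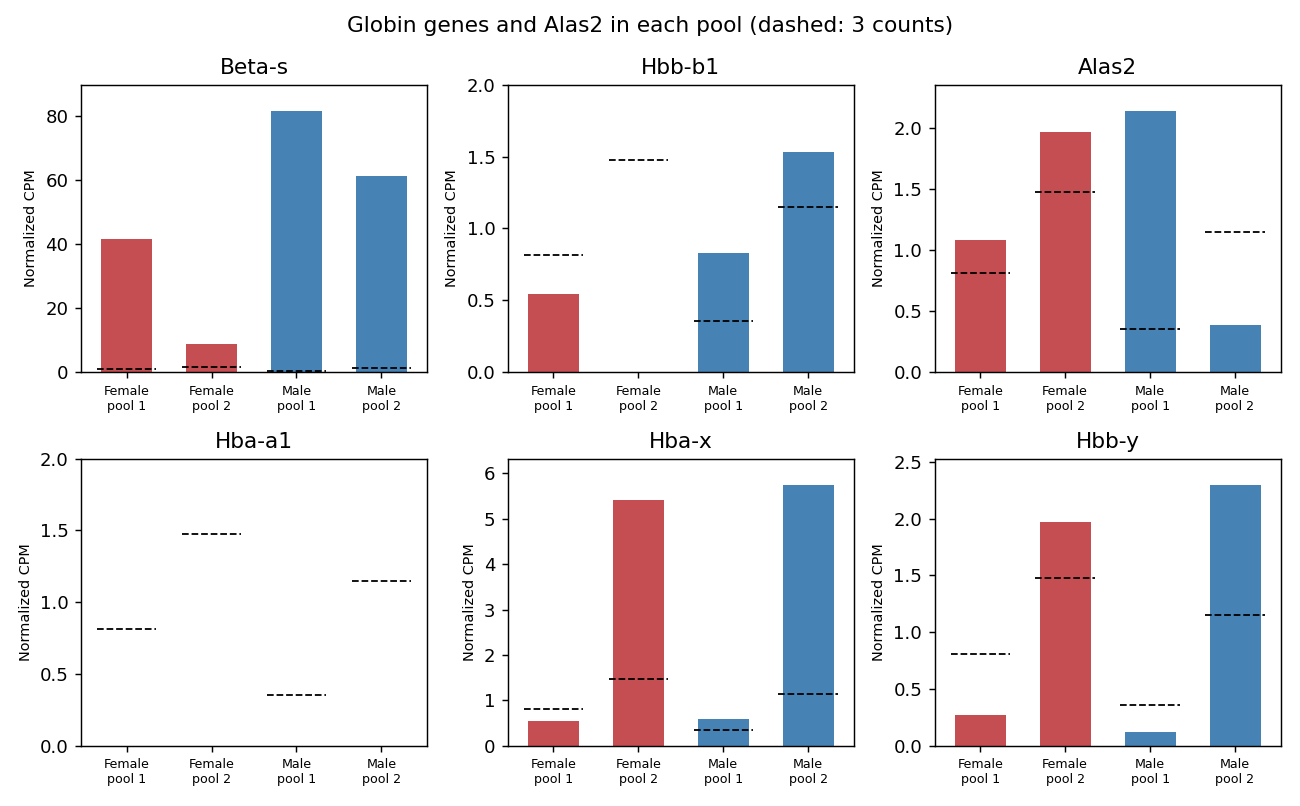
Normalized CPM (vertical axes, each with its own range from 0) of Beta-s, Hbb-b1, Alas2, Hba-a1, Hba-x and Hbb-y in the 4 pools, with red bars for females and blue bars for males. Dashed lines mark the level of 3 counts in each pool. Beta-s is highest in both male pools at 81.5 and 61.3, Hba-a1 is at 0 in all 4 pools, and Hba-x and Hbb-y are higher in both pools numbered 2.

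Set against all reads on genes, Beta-s took a small share in every pool, with only uniquely placed reads counted. Its share was 0.00439% in female pool 1 (95% Wilson interval 0.00375% to 0.00514%) and 0.000911% in female pool 2 (0.000576% to 0.00144%). In male pool 1 the share was 0.00966% (0.00896% to 0.0104%) and in male pool 2 it was 0.00478% (0.00410% to 0.00558%). On this scale, which leaves out the TMM factors, the intervals of female pool 1 and male pool 2 overlapped. Ranked by counts, Beta-s was gene 3507 of 15223 with a count in female pool 1 and 7931 of 14895 in female pool 2. In the male pools it ranked 1829 of 16523 and 2498 of 15747.

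Per kilobase of exon, which allows levels of different genes to be set side by side, the mean of Beta-s over the 4 pools was 56.0 normalized CPM. The length was that of GENCODE Hbb-b1. Aire was at 6.48 on the same scale. The epithelial keratin gene Krt8 had a mean of 49.1, with 23.8 and 67.1 in female pools 1 and 2, and 34.8 and 70.5 in male pools 1 and 2. Prdx2, a peroxiredoxin abundant in red cells and present in many others, was at 117. In female pool 2 Beta-s was at 10.3 per kilobase, against 48.3, 94.5 and 71.0 in the other 3 pools. Gene models and multiple alignment limit this scale, since only 47.74% of the windows of that locus and 56.38% of those of Krt8 were unique.

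Hbb-b1, the second β-globin row, had 2 and 0 counts in females and 7 and 4 in males. Its levels were 0.541, 0, 0.832 and 1.53 normalized CPM in the order given above. Both male pools lay above both female pools here too, but the female pools were at or under 3 counts and no fold is given. Hbb-b1 made up 1.28% of the counts on Beta-s and Hbb-b1 in female pool 1 (exact interval 0.156% to 4.55%), 1.01% in male pool 1 (0.407% to 2.07%) and 2.44% in male pool 2 (0.668% to 6.13%). In female pool 2 it was 0 of 18, which allows up to 18.5%. The ratio of the 2 rows was thus not distinguishable between pools at this depth.

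Hbb-b2, Hba-a1 and Hba-a2 had 0 counts in all 4 pools. For the α-globin genes the depth that this allows is small, because reads could be placed uniquely on 50 windows of each. The limit of 3 counts is 0.06 counts per unique window, while Beta-s had 0.443 and 0.0517 counts per unique window in female pools 1 and 2, and 1.97 and 0.460 in male pools 1 and 2. In 3 of the 4 pools the limit on each α-globin gene therefore lay below the level of Beta-s per unique window, and in female pool 2 it did not. This scale assumes that windows were sampled alike and that the table's gene models match those of GENCODE, neither of which was tested. The limit applies to uniquely placed reads only, and α-globin reads with several alignments are not in these counts.

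Alas2 was low, with 4 counts in each female pool and 18 and 1 in males. Its levels were 1.08, 1.97, 2.14 and 0.383 normalized CPM in the same order. The sexes overlapped, since the highest and the lowest level were both in males. The means were 1.53 ± 0.627 in females and 1.26 ± 1.24 in males (SD, n = 2), a log2 ratio of male over female of -0.28. That sign turned to 0.22 without female pool 2 and to 0.49 without male pool 2. Per kilobase of exon Alas2 was at 0.580 normalized CPM, and it did not reach the minimum for the test.

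The embryonic globins Hba-x and Hbb-y did not share the order of Beta-s. Hba-x, the embryonic α-type gene, had 2 and 11 counts in female pools 1 and 2, and 5 and 15 in male pools 1 and 2. In normalized CPM it was at 0.541, 5.42, 0.594 and 5.75, high in both pools numbered 2 and low in both numbered 1, with no separation by sex. Its log2 fold change of male over female was 0.02 with a standard error of 1.39, and edgeR's quasi-likelihood test gave an unadjusted p of 0.987. Hbb-y, the embryonic β-type gene, had only 1 and 4 counts in females and 1 and 6 in males. These were 0.271 and 1.97 normalized CPM in females and 0.119 and 2.30 in males, the same order by pool number. Female pool 2, the lowest of the 4 for Beta-s, was thus above both pools numbered 1 for both of these genes.

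Of 11 other globins listed, 9 had a row, 3 were at 0 in every pool and 1, Hba-x, was tested. The early embryonic β-type gene Hbb-bh1 had between 0 and 2 counts per pool. Hbb-bh2, Hbq1a and Hbq1b were at 0. Cygb, a globin of fibroblast-type cells, had 4 and 3 counts in females and 13 and 13 in males, at 1.08, 1.48, 1.55 and 4.98 normalized CPM, higher in both male pools but below the filter for the test. Myoglobin (Mb) had 0 counts in females and 1 and 2 in males, and neuroglobin (Ngb) had at most 2 in any pool.

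Several genes that define red cells and their precursors had few or no counts in the same pools. Slc4a1, the anion exchanger of the red cell membrane, had 0 counts in all 4 pools, although all of its 4496 windows were unique. Ankyrin Ank1 had 1, 0, 5 and 0 counts in the order female pools 1 and 2, male pools 1 and 2. The erythroid master regulators Gata1 and Klf1 had 0, 0, 5 and 0 counts and 0, 1, 1 and 0 counts. The erythropoietin receptor Epor had 2, 1, 2 and 1, and no row was found for the α-globin chaperone Ahsp. The erythroid factor Nfe2 had 0, 1, 18 and 0. These genes were named for the label check, apart from Ank1 and Nfe2, which were picked after their values were seen, and erythroid list genes that other cells also use had many more counts.

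**Figure D3:**
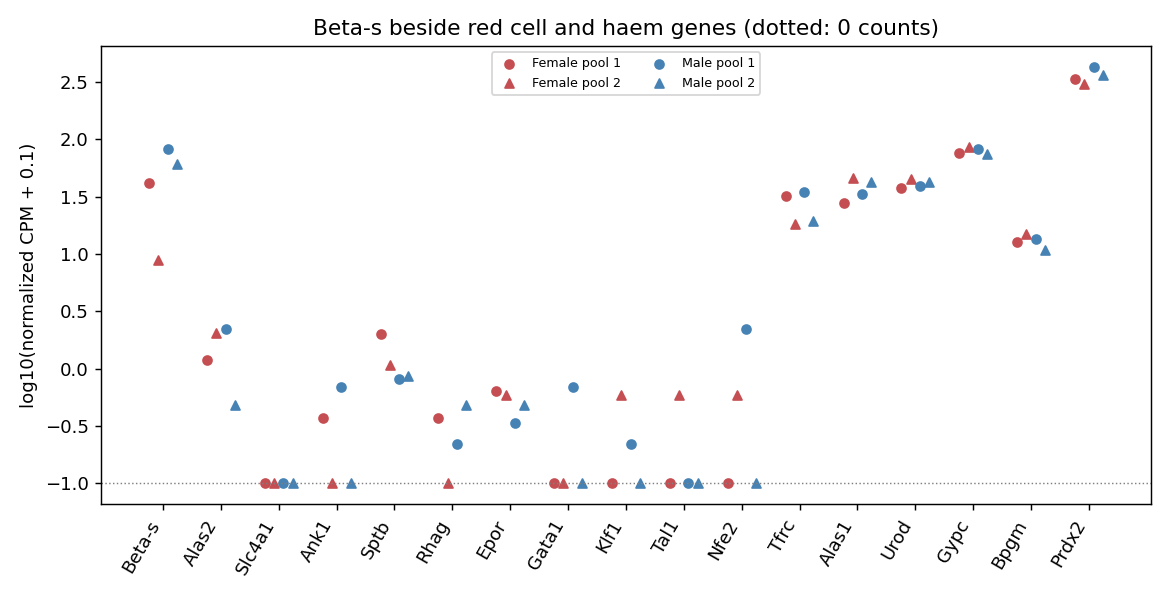
Log10 of normalized CPM plus 0.1 (vertical axis) of Beta-s, Alas2 and genes of red cells and haem metabolism, with circles for pools numbered 1, triangles for pools numbered 2, red for females and blue for males. The dotted line is a count of 0. Beta-s lies at 8.86 normalized CPM or above in every pool, Slc4a1 lies on the dotted line, and broadly used genes such as Prdx2, Gypc and Urod are high in all 4 pools.

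Erythroid genes were then compared between the sexes across the whole table, with edgeR's quasi-likelihood test and Benjamini-Hochberg adjustment. No gene of the 10865 tested passed an adjusted p of 0.05 (0% called), and 48 (0.442%) had an unadjusted p under 0.05. Xist and Ddx3y were thus not called either, although their counts set the sexes fully apart. A lack of calls in this test therefore does not show that a gene was alike in both sexes. DESeq2 called 3 genes (0.0276%), edgeR's exact test 8 (0.0736%) and its likelihood ratio test 8 (0.0736%). The 7 erythroid lists held 83 genes, of which 79 had a row, 42 were tested, 9 were at 0 in every pool and 22 had at most 3 counts in every pool. Of the 42 tested, 0 had an unadjusted p under 0.05, and DESeq2, the exact test and the likelihood ratio test called 0 as well. Their median log2 fold change of male over female was -0.01, beside 0.03 over all genes tested. Of the 42, 19 were above 0, beside 5781 of the 10865 genes tested. An absolute log2 fold change under 0.5 was seen in 36, for which no share over all genes is given. In both male pools 2 lay higher and 5 lower, beside 9.41% and 11.8% of all genes tested.

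Haem synthesis genes, used in every cell type, were all tested, with log2 fold changes between -0.32 and 0.27. Of these 8 genes, 2 had a log2 fold change above 0, and the median was -0.10. The most abundant were Urod at a mean of 41.2 normalized CPM over the 4 pools, Alas1 at 37.4 and Alad at 33.9, with log2 fold changes of -0.01, 0.03 and -0.13. Alas1, the general form of the first enzyme, had 103, 94, 278 and 111 counts against 4, 4, 18 and 1 for the erythroid form Alas2. Iron and haem transport genes had a median of 0.14 over 8 tested, with 6 above 0. Tmem14c, a mitochondrial porphyrin transporter, was at a mean of 169, Glrx5, of iron-sulphur cluster assembly, at 75.2, and the mitochondrial glycine carrier Slc25a38 at 49.7. Tfrc, the transferrin receptor, was at 32.2, 18.2, 34.7 and 19.2 normalized CPM, lower in both pools numbered 2, with a log2 fold change of 0.10 (SE 0.44).

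Membrane and skeleton genes of red cells numbered 17, of which 3 were tested and 7 had at most 3 counts in every pool. The 3 tested, Gypc, Epb41 and Tmod1, are also used outside the red cell, and their means were 79.8, 37.8 and 4.62 normalized CPM with log2 fold changes between -0.09 and -0.05. Transcription factors of the lineage had a median of -0.23 over 7 tested, with 2 above 0. The most abundant were Ldb1 at a mean of 48.4, Bcl11a at 32.2 and Lmo2 at 28.5, all with roles in other blood cells too. Bcl11a, the repressor of embryonic globin genes in adult erythroid cells, had a log2 fold change of -0.58 (SE 0.31) and an unadjusted p of 0.107. Foxo3 had the lowest unadjusted p of the 42 genes at 0.0767, with a log2 fold change of -1.21.

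Receptor and cytosolic genes had a median of -0.01 over 7 tested, and Trim58, Trim10 and Tspo2, which are largely erythroid, were at 0 in every pool. Prdx2 led with a mean of 358 normalized CPM, followed by the mitophagy receptor Bnip3l at 106 and catalase (Cat) at 103, with log2 fold changes of 0.31, -0.01 and -0.02. Genes of haemoglobin and haem clearance, which macrophages use to take up red cells and free haem, had a median of 0.04 over 8 tested. The adhesion molecule Vcam1 was at a mean of 125, the haem-degrading enzyme Hmox1 at 38.1 and the haem transporter Slc48a1 at 34.7. Hp, the haptoglobin that binds free haemoglobin, had the highest log2 fold change of the 42 genes at 1.19 (SE 0.79), with an unadjusted p of 0.178. Its 3, 6, 41 and 7 counts overlapped between the sexes once scaled, at 0.812, 2.95, 4.87 and 2.68 normalized CPM.

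**Figure D4:**
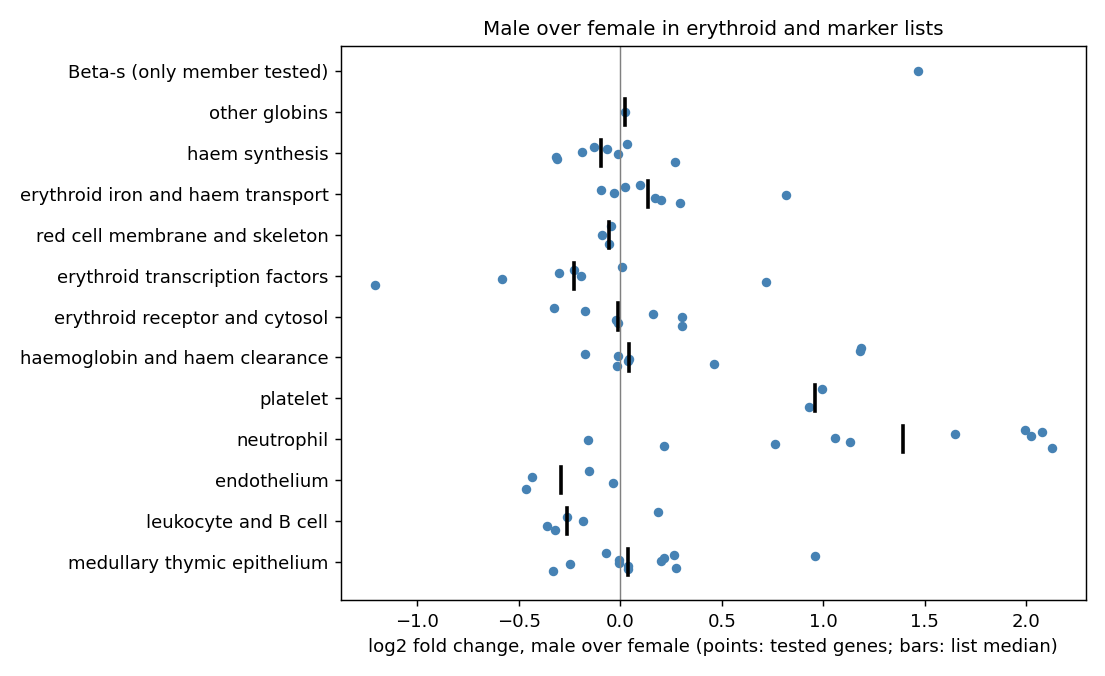
Log2 fold change of male over female (horizontal axis) of each tested gene in the erythroid lists and the marker lists of other cell types, with 1 point a gene and a black bar at each list's median. Beta-s lies at 1.47, the erythroid lists have medians between -0.23 and 0.14, and the neutrophil list has a median of 1.39.

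Markers of other cell types were set beside Beta-s. Neutrophils, B cells and most other leukocytes carry CD45, and red cells and platelets lack MHCII, so the gate as labelled would leave them out. RNA of Ptprc, the gene of CD45, was still present, at 279 and 179 normalized CPM in females and 303 and 218 in males. The neutrophil list was the one of the 5 marker lists whose summed level was higher in both male pools. Of its 10 tested genes, 4 lay higher in both male pools, beside 9.41% of all genes tested. In the quasi-likelihood test 4 had an unadjusted p under 0.05, beside 0.442% of all genes tested, and 0 were called. The list was chosen with earlier results of these data known. These shares and the p-values of its genes below are thus a description and no separate result. The list's 13 genes with a row summed to 124 and 129 normalized CPM in females and 296 and 442 in males. None of them was at 0 in all 4 pools. S100a9, a calcium-binding protein of neutrophils and monocytes, was at 22.7 and 19.2 in females and 81.1 and 96.9 in males. Its partner S100a8 was at 19.0 and 24.6 in females and 65.5 and 108 in males, and the chemokine receptor Cxcr2 was at 43.9, 51.7, 34.3 and 177 across the pools. Ngp, a granule protein of immature neutrophils, was at 12.7 and 2.46 in females and 40.4 and 8.81 in males. It was named for its likeness to the summed globins, so its low in female pool 2, as for Beta-s, was part of that choice. The female pools thus lay close together for S100a9 and S100a8 and far apart for Ngp. S100a9 and S100a8 had log2 fold changes of 2.08 and 1.99, and adjusted p-values of 0.00234 and 0.0291 in edgeR's exact test and of 0.0504 and 0.162 in DESeq2. The part of such cells in the level of Beta-s was not tested.

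Platelet genes, made by the lineage closest to the erythroid one, summed to 22.5, 26.1, 22.1 and 72.0 normalized CPM over 12 genes. Gp1bb and Gp6 were at 0 in every pool, and Pf4, a chemokine of platelets, gave most of the sum at 11.6, 21.2, 6.30 and 60.1. Itgb3, an integrin of platelets and other cells, was at 8.39, 2.46, 12.4 and 9.19, and Itga2b had at most 8 counts. Endothelial genes summed to 43.6, 51.2, 44.6 and 39.1, led by Pecam1 with a mean of 20.5, Esam with 8.48 and Vwf with 6.46, with Tie1 and Emcn at 0. The lowest sum was in male pool 1 for platelet genes and in male pool 2 for endothelial genes. Of the 12 platelet genes, 6 had at most 3 counts in every pool. Itgb3 had the same order over the 4 pools as Beta-s. Its log2 fold change was 0.93 (SE 0.59), with an unadjusted p of 0.162 in the quasi-likelihood test. An order over 4 pools cannot tell the source of a transcript, and the part of such cells in the level of Beta-s was not tested.

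B cell and leukocyte genes summed to 4442 and 2915 normalized CPM in females and 3707 and 2534 in males, with the B cell receptor genes Cd79a and Cd79b at means of 1815 and 545. They were lower in both pools numbered 2, and all 5 were tested with a median log2 fold change of -0.26. The list for medullary epithelium, which MHC class II genes dominate, was led by Cd74, H2-Aa and Krt8 at means of 42701, 15068 and 88.6. It summed to 64019, 61437, 46668 and 60190, with a median of 0.04 over 12 tested. Aire itself was at 19.2, 31.5, 19.6 and 28.7. The parts of these cells in the level of Beta-s were not tested.

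The genes whose pattern over the 4 pools was closest to the summed globins were Il7r, Ly6c1, Igj, Ngp and Sord. Likeness was measured as the root mean square difference of centred log2 values over the 4 pools, among 7839 genes with a mean of at least 10 normalized CPM, where the median gene differed by 1.26. Il7r, the interleukin-7 receptor of lymphoid cells, differed by 0.54 and was at 9.20, 4.43, 17.1 and 14.2. Ly6c1, an antigen of monocytes and endothelium, differed by 0.60 and was at 14.3, 5.42, 16.5 and 16.9. Igj, the immunoglobulin joining chain of plasma cells, differed by 0.61 and was at 614, 238, 1068 and 493. Ngp differed by 0.63, and Sord, sorbitol dehydrogenase, by 0.67. All 5 were lowest in female pool 2, as Beta-s was, but they were chosen for likeness to that pattern, so this is no separate result. S100a9 was at place 19 of the 7839 and S100a8 at place 328.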

How the data were processed

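RNA of sorted mTECs from 2 female and 2 male pools was measured. The authors removed low-quality reads with Trimmomatic, aligned to mm9 with TopHat2, counted with HTSeq and deposited raw counts per gene symbol. Gene models, strand setting and versions are not given in the sources used here. The 5 rows that name no gene, 66.9% to 70.2% of a pool's sum, stayed out of library sizes and tests.

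Counts were compared by edgeR 4.0.16's quasi-likelihood test (R 4.3.3) with TMM, filterByExpr (minimum count 10), prior count 0.125, sex as the only term and Benjamini-Hochberg adjustment at 0.05, two-sided. The procedure was tested on simulated data. The common biological coefficient of variation was 0.349. The fit was over all genes, and p-values measure the spread between 2 pools a sex. Standard errors of fold changes were derived from the test, as the absolute log2 fold change over the square root of its F statistic. Every pair of pools differed by more than counting noise, so none was merged. Python 3.11.15, pandas 2.3.3, scipy 1.17.1 and matplotlib 3.10.9 gave shares, intervals and plots. Windows and coding sequences were read from NCBIM37 with GENCODE vM1, promoters from RefSeq.

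Members and lists were chosen with earlier results of these data known. Named are all members, the 3 most abundant genes of each list, genes past the adjusted threshold, the 5 genes most similar to the summed globins (pseudocount 0.5, mean of at least 10 normalized CPM) and genes for label checks. A few of these genes are not reported here. Others, such as Hba-x, Hbb-y, Foxo3 and Hp, were named after their values were seen. Alternatives were other normalizations, filters, prior counts, tests including DESeq2 1.42.0, pool number as a block, and each pool left out.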

Additional observations from a re-analysis of the deposited data

How the results depend on the processing

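No gene passed in the main comparison, in edgeR's newer quasi-likelihood method, with upper-quartile normalization or when genes had to exceed 1 CPM in 2 or more pools. Scaling by library size alone gave 5, keeping genes of any count 26, and 3 passed with DESeq2, 8 with edgeR's exact test and 8 with its likelihood ratio test. Leaving out each pool gave 0 to 646 genes, with 646 without male pool 1, 70 without male pool 2 and 0 without either female pool. With the pool number as a replicate block it was 17, and the deviations of same-numbered pools correlated at r = 0.52 over 10865 genes. With only 2 pairs and no label that says what a number marks, the source of this shared pattern was not tested. Of the erythroid list genes, 1 passed in any of these, Myb without male pool 2 (log2 fold change 1.39, adjusted p = 0.0178 in edgeR's quasi-likelihood test, against 0.72 and 0.999994 with all pools).

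The log2 ratio of the summed globin share was 1.45, and 0.72 to 3.01 with each pool left out, the extremes being without female pool 2 and female pool 1. The erythroid median of -0.01 ranged from -0.0669 to 0.14 with each pool left out and from -0.09 to 0.00431 otherwise. The fitted log2 fold change of Beta-s was 1.42 to 1.69 under other normalizations, the block, DESeq2 and a prior count of 2. The Alas2 ratio was -1.99 when male pool 1 was left out, which leaves the males only the 1 count of male pool 2. It was 0.49 when male pool 2 was left out. Alas2 and Hbb-b1 lie below the filter, so the alternatives that need a fit were not run for them. Without Beta-s the globin sum is Hbb-b1 alone, for which no fold is given. The cause of these differences was not tested. Low depth limits Hbb-b1 and Alas2, and repeated sequence limits the α-globin genes.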

Other observations

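The embryonic α-type globin Hba-x was among the genes ordered by pool number. Of the 10865 genes tested, 2878 (26.5%) lay higher in both pools numbered 2 than in both numbered 1, and 3152 (29.0%) lay lower, against 9.41% and 11.8% higher and lower in both male pools. Hba-x was in the former set, at 5.42 and 5.75 normalized CPM in pools numbered 2 and 0.541 and 0.594 in pools numbered 1. Krt8 was at 121 and 127 against 43.0 and 62.9, and Aire at 31.5 and 28.7 against 19.2 and 19.6. Beta-s was not in either set. Hmox1, the haem-degrading enzyme, was at 56.1 and 51.7 against 24.4 and 20.1. These genes were picked after their values were seen, and no source used here says what the pool numbers mark.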
